A study of Mus musculus with 6 samples.

Results

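The 10 genes described here encode carriers of glucose, other sugars, urate and monocarboxylates that the proximal tubule of the kidney is known for. They were chosen by name from the carriers known in this segment: Slc5a1, Slc5a2, Slc5a10, Slc5a8 and Slc5a12 of the sodium-coupled SLC5 family, Slc2a1, Slc2a2, Slc2a5 and Slc2a9 of the facilitative SLC2 family, and Slc16a1 of the monocarboxylate SLC16 family. All 10 were found among the 54532 genes of the deposited tables, and all 10 were among the 15816 genes expressed highly enough to be tested. RNA-sequencing was performed on kidneys from 3 wild-type (WT) mice and 3 Trpm2-/- mice (labelled TRPM2-KO) on the C57BL/6J strain. TRPM2 is a calcium-permeable cation channel of the plasma membrane that opens upon oxidative stress. Every mouse of both genotypes had received cisplatin, a platinum drug that injures the proximal tubule, at 18 mg/kg and was killed 72 h later, so each value below compares genotypes under cisplatin and none compares treated with untreated kidney. The labels give an age of 6 to 8 weeks, whereas the methods of the study give an older range for its cisplatin-treated males. The Trpm2-/- allele is a deletion carried in all cells of the body and not in the tubule alone. WT mice were bought from a supplier and Trpm2-/- mice came from another institution, and the sources used here do not say that they were littermates.

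Glucose filtered at the glomerulus is taken back almost entirely by the proximal tubule. The apical membrane draws it in with sodium through SGLT2 (Slc5a2), a low-affinity carrier of the early segment, and then through SGLT1 (Slc5a1), a high-affinity carrier of the late segment. GLUT2 (Slc2a2) and GLUT1 (Slc2a1) let it leave across the basolateral membrane, and the sodium pump maintains the gradient that drives the uptake. SGLT5 (Slc5a10) carries mannose and fructose, GLUT5 (Slc2a5) carries fructose, and GLUT9 (Slc2a9) carries urate. Lactate and other monocarboxylates enter with sodium through SMCT2 (Slc5a12) and SMCT1 (Slc5a8), while MCT1 (Slc16a1) moves them together with protons and needs the chaperone basigin to reach the membrane. GLUT1 and MCT1 are also made by many other cell types.

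The sequences just upstream of 4 of these genes are shown because their levels parted: Slc5a8, Slc5a1 and Slc5a10 were lower in Trpm2-/- kidney and Slc2a2 was not. Each run gives the 250 bases before the start site, 5′ to 3′ on the gene's strand, as held by RefSeq for GRCm38.p6. Capitals mark a match, on either strand, to GTTAAT (a core of sites bound by HNF1 factors) or to CAAAGT (a core of sites bound by HNF4 factors), both being factors known to act in proximal tubule.
Slc5a8 (chr10:88885742-88885991, plus strand): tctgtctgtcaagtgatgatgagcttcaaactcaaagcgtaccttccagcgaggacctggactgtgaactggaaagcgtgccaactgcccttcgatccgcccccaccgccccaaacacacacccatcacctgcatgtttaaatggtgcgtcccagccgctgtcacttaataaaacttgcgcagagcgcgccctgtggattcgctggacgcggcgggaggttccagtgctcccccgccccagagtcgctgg
Slc5a1 (chr5:33103969-33104218, plus strand): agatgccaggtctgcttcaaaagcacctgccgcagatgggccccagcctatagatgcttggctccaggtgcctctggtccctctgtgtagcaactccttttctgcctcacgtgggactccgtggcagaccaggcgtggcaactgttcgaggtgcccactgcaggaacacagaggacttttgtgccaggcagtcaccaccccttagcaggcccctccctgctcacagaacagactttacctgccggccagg
Slc5a10 (chr11:61720800-61721049, minus strand): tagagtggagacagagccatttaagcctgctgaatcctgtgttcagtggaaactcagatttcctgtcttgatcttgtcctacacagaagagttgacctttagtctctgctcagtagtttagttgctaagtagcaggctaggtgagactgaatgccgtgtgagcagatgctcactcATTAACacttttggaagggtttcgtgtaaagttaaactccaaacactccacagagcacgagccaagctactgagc
Slc2a2 (chr3:28697653-28697902, plus strand): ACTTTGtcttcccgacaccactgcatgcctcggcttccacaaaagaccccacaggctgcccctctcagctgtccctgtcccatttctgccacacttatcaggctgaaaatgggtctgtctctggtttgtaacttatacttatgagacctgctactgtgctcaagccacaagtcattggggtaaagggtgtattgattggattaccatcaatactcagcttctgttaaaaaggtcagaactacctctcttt
The table held 8 of the 10 genes, and Slc5a2 and Slc5a12 were not among them. For Slc2a9 the start it held was 19758 bases from the start of the counted gene. The letters GTTAAT were present upstream of 1 of these 8, Slc5a10, where the match begins 75 bases before the start site, and in 6.432% of all 32851 windows of the same length. The letters CAAAGT were present upstream of 1 of the 8, Slc2a2, at the far end of the window, and in 12.55% of all windows. The 2 motifs did not overlap in these runs. The GC content of the 4 runs was 58.8% for Slc5a8, 60.0% for Slc5a1, 45.6% for Slc5a10 and 47.2% for Slc2a2. A match is a description of the letters and was not related to binding here.

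Total counts on genes were between 15991951 and 17150089 in the WT libraries and between 14053307 and 16150446 in the Trpm2-/- libraries. Each carrier had between 218 and 4111 counts in each library, so the counting error of a single value was between 6.77% and 1.56%. Mitochondrial transcripts took 4.43% to 4.72% of the counts in WT libraries and 7.91%, 7.95% and 11.04% in Trpm2-/- libraries 1, 2 and 4. Library Trpm2-/- 4 also stood apart in markers of glomerular cells, with a summed level of 4 podocyte markers of 69.8 FPKM (fragments scaled to gene length and library size) against 16.5 to 23.1 in the other 5 libraries, and its part in the results was examined by leaving it out. Trpm2 itself had 5, 5 and 27 counts in WT and 10, 16 and 20 counts in Trpm2-/- kidney, and the difference did not pass the test (adjusted p = 0.776, edgeR). Since the allele removes only a small part of the gene, a count over the whole gene does not check the genotype. The sources used here name kidney tissue and do not say which part was taken. The part of the kidney sampled, the number of proximal tubule cells and the RNA per cell cannot be told apart.

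The sodium-coupled carriers of sugar and of monocarboxylates were all lower in Trpm2-/- than in WT kidney, and so was the fructose carrier Slc2a5. By contrast, none of Slc2a1, Slc2a2, Slc2a9 and Slc16a1 passed the test in either direction. Of the 10 genes, 6 were lower at an adjusted p under 0.05 (quasi-likelihood test of edgeR, p adjusted by Benjamini-Hochberg over all genes tested), where 7.28% of all genes tested were. The same 6 passed the threshold used in the study's methods, an absolute log2 fold change above 1 with p under 0.05, which 4.10% of all genes tested passed downward. In the same 6 every Trpm2-/- library was below every WT library in CPM (counts scaled to library size after TMM normalization), as in 16.8% of all genes tested. None of the 10 was higher at an adjusted p under 0.05 in edgeR, DESeq2 or limma-voom, against 4.74% of all genes tested, and 1, Slc2a9, had an unadjusted p under 0.05 in each of the 3 tools. None passed the methods' threshold upward or lay above every WT library, against 3.50% and 16.7% of all genes tested. The carriers were chosen with earlier results of these data known. These counts thus describe the list, and none was tested against its share. The median log2 fold change of the 10 genes was -1.11, compared with 0.02 over all genes tested. With single libraries left out, the calls over all genes went from 1152 lower and 750 higher to 521 and 176 without WT 2, to 470 and 160 without WT 3, and to 848 and 421 without Trpm2-/- 1. The number of carriers called lower was 5 without WT 1, WT 2, WT 3 or Trpm2-/- 4, and 6 without Trpm2-/- 1 or 2.

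**Figure D1:**
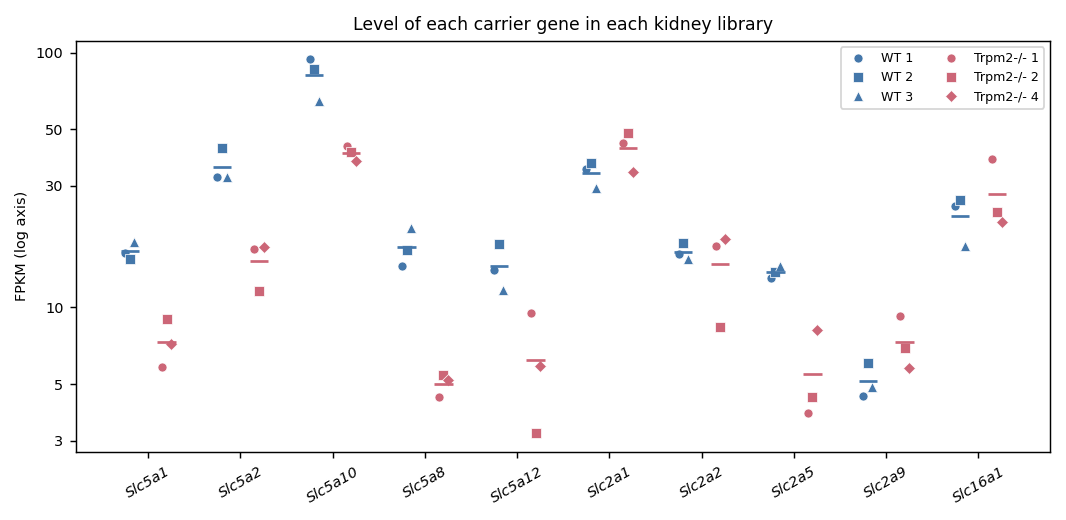
Level of each carrier gene in FPKM, on a log axis, in each of the 3 WT (blue) and 3 Trpm2-/- (red) kidney libraries, with a line at each group mean. The groups are apart for Slc5a1, Slc5a2, Slc5a10, Slc5a8, Slc5a12 and Slc2a5 and overlap for Slc2a1, Slc2a2, Slc2a9 and Slc16a1.

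**Figure D2:**
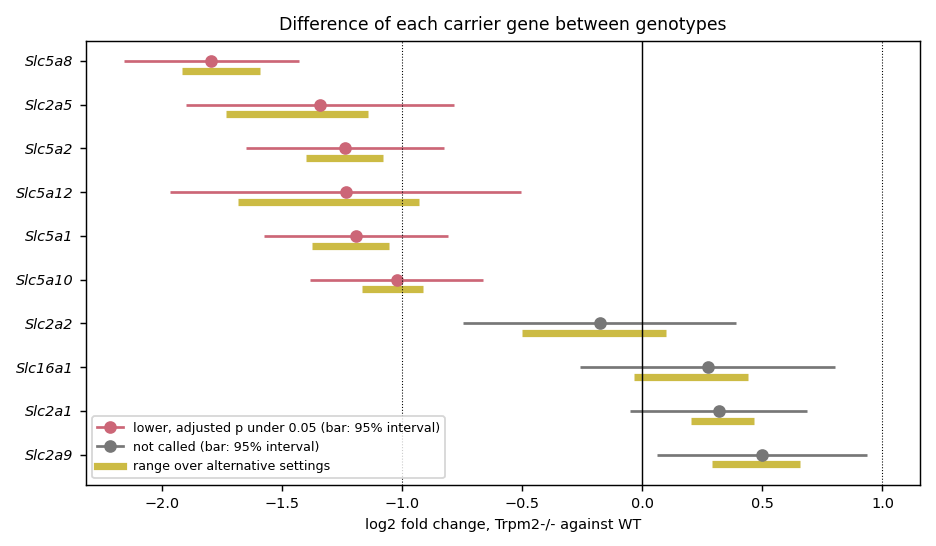
Log2 fold change of each carrier gene in Trpm2-/- against WT kidney (x axis) with its 95% interval from edgeR, and in yellow the range over 17 alternative settings. The 6 genes in red lie below 0 with their intervals, from -1.79 for Slc5a8 to -1.02 for Slc5a10, and dotted lines mark a log2 fold change of 1 in each direction.

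The carriers of apical glucose uptake fell to a similar fraction of their WT level. Slc5a2 (chr7:128265657-128272430, plus strand) had 32.4, 42.2 and 32.5 FPKM in WT kidney and 17.0, 11.6 and 17.3 FPKM in Trpm2-/- kidney. All Trpm2-/- values were below the lowest WT value, with library 2 the lowest. The log2 fold change was -1.24 (SE 0.18, 95% interval -1.65 to -0.83, adjusted p = 0.00402, edgeR), which is 42.4% of the WT level. Slc5a1 (chr5:33104219-33162870, plus strand) had 16.3, 15.5 and 18.1 FPKM in WT and 5.82, 9.00 and 7.17 FPKM in Trpm2-/- kidney. The groups were well apart here too, but library 1 rather than library 2 was the lowest. Slc5a1 stood at 43.8% of its WT level (log2 fold change -1.19, SE 0.17, 95% interval -1.57 to -0.81, adjusted p = 0.00374, edgeR). Both genes were called lower in each of 17 alternative settings, which included leaving out each library in turn.

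Slc5a10, the mannose and fructose cotransporter, was the most abundant of the 10 in WT kidney and lost the most in absolute level. On chromosome 11 (chr11:61672781-61720826, minus strand), it had 94.0, 85.8 and 64.5 FPKM in WT and 42.9, 40.7 and 37.6 FPKM in Trpm2-/- kidney. The Trpm2-/- values lay close together, spanning 0.20 on the log2 CPM scale, while the WT values spanned 0.54. Slc5a10 fell by 1.02 on the log2 scale (SE 0.16, 95% interval -1.38 to -0.66, adjusted p = 0.00516, edgeR), to 49.3% of WT. The call held in all 17 alternative settings, although the fold change came to -0.91 at its smallest and so short of the methods' threshold. Of its exon bases, 16.8% are shared with Fam83g and Grap on the opposite strand, and Fam83g rose (log2 fold change 0.88, SE 0.16, adjusted p = 0.00792, edgeR). Likewise, 20.6% of the exon bases of Slc5a2 are shared with BC017158 on the opposite strand, which had a log2 fold change of -0.21 (adjusted p = 0.443, edgeR). The sources used here do not state whether counting used the strand, so reads in these shared bases cannot be assigned, and the other carriers share 0 exon bases with another gene apart from Slc2a1, which shares 3.00%.

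The sodium-coupled monocarboxylate carriers were both lower, with unlike spread between mice. Slc5a8 (chr10:88885992-88929515, plus strand), the high-affinity carrier of lactate and short-chain fatty acids, had 14.5, 16.8 and 20.5 FPKM in WT and 4.45, 5.42 and 5.18 FPKM in Trpm2-/- kidney. Even the lowest WT library was far above the highest Trpm2-/- library, and the Trpm2-/- libraries were nearly alike. Its log2 fold change of -1.79 (SE 0.16, 95% interval -2.16 to -1.43, adjusted p = 0.00126, edgeR) was the lowest of the 10, at 28.8% of WT, and it was between -1.91 and -1.59 in the 17 alternative settings, with the call kept in each. Slc5a12 (chr2:110597298-110647779, plus strand), the low-affinity carrier, had 14.1, 17.7 and 11.7 FPKM in WT and 9.46, 3.21 and 5.91 FPKM in Trpm2-/- kidney. The groups did not overlap, but the Trpm2-/- libraries spanned 1.55 on the log2 CPM scale, the widest range of the 10 genes. Slc5a12 stood at 42.5% of WT (log2 fold change -1.23, SE 0.32, 95% interval -1.96 to -0.51, adjusted p = 0.0382, edgeR). This call is the least firm of the 6, since it held in 10 of 17 alternative settings and was lost without WT 1 (adjusted p = 0.0730), WT 2 (0.134), WT 3 (0.0664) or Trpm2-/- 4 (0.0865) and in the 3 fits on log2 FPKM (0.0515 to 0.152).

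Among the facilitative carriers, the fructose carrier fell and the others did not pass the test. Slc2a5 (chr4:150119283-150144169, plus strand) had 13.1, 13.8 and 14.5 FPKM in WT and 3.85, 4.43 and 8.18 FPKM in Trpm2-/- kidney. WT libraries were nearly alike, and within Trpm2-/- kidney library 4 was well above the other two. The level was 39.5% of WT (log2 fold change -1.34, SE 0.25, 95% interval -1.90 to -0.78, adjusted p = 0.00947, edgeR), and the call was lost in 1 of 17 alternative settings, limma on log2(FPKM + 1) with no filter on low values (adjusted p = 0.0685). Without Trpm2-/- 4, the library with the high glomerular markers, its log2 fold change was -1.73 (adjusted p = 0.00112, edgeR).

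Slc2a2 (chr3:28697903-28731359, plus strand), which passes glucose out of the early segment, had 16.2, 17.9 and 15.5 FPKM in WT and 17.4, 8.34 and 18.5 FPKM in Trpm2-/- kidney. Libraries 1 and 4 lay above the WT median and library 2 lay far below every WT value. The log2 fold change was -0.18 (SE 0.25, adjusted p = 0.695, edgeR) with a 95% interval from -0.74 to 0.39, so a change of either sign within these bounds could not be told from 0. Without Trpm2-/- 2 it was 0.10. Slc2a1 (chr4:119108711-119137983, plus strand), the widely expressed glucose carrier, had 34.8, 36.7 and 29.3 FPKM in WT and 44.2, 48.5 and 33.9 FPKM in Trpm2-/- kidney. Libraries 1 and 2 were above every WT value and library 4 was within the WT range. The difference did not pass the test (log2 fold change 0.32, SE 0.16, 95% interval -0.05 to 0.69, adjusted p = 0.242, edgeR). The urate carrier Slc2a9 (chr5:38349273-38503143, minus strand) had 4.47, 6.07 and 4.87 FPKM in WT and 9.25, 6.90 and 5.79 FPKM in Trpm2-/- kidney. Library 4 was again within the WT range and the others above it. Its log2 fold change of 0.50 (SE 0.20, 95% interval 0.06 to 0.94) had an unadjusted p of 0.0295 and an adjusted p of 0.128 (edgeR), and it was called higher in 1 of 17 alternative settings, the count fit with no filter (adjusted p = 0.0449).

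Slc16a1 (chr3:104638668-104658462, plus strand), the proton-coupled lactate carrier, had 25.1, 26.3 and 17.4 FPKM in WT and 38.4, 23.6 and 21.6 FPKM in Trpm2-/- kidney. Library 1 alone lay above the WT range, and the 2 other libraries lay within it. The log2 fold change was 0.27 (SE 0.24, 95% interval -0.26 to 0.80, adjusted p = 0.497, edgeR) and became -0.03 without Trpm2-/- 1.

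The 3 Trpm2-/- kidneys did not move through these genes in 1 order. Relative to the WT mean on the log2 CPM scale, Slc5a8 was at -1.95, -1.66 and -1.74 in libraries 1, 2 and 4, and Slc5a10 was at -0.92, -0.99 and -1.12. These 2 genes were thus lower by a like amount in every Trpm2-/- kidney. Slc5a12 was at -0.60, -2.15 and -1.29, and Slc2a2 at 0.06, -0.99 and 0.15, so both were lowest in library 2. Slc5a2 was also lowest in library 2, at -1.62 against -1.07 and -1.06, while Slc5a1, Slc5a8 and Slc2a5 were lowest in library 1 and Slc5a10, Slc2a1, Slc2a9 and Slc16a1 in library 4. No single Trpm2-/- kidney was thus the lowest for all carriers. Without library 2, the log2 fold change of Slc5a2 was -1.08 (adjusted p = 0.00852, edgeR) and that of Slc5a12 was -0.93 (adjusted p = 0.0424, edgeR).

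**Figure D3:**
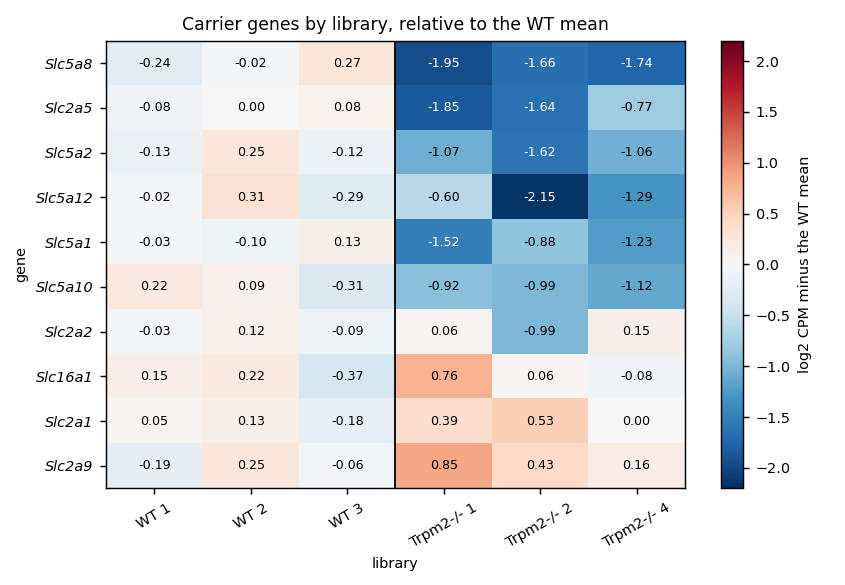
Log2 CPM of each carrier gene (rows, ordered by fold change) in each library (columns) minus the mean of the WT libraries, from blue (lower) to red (higher). Slc5a8 is below the WT mean by 1.66 or more in each Trpm2-/- library, whereas Slc2a2 is low in Trpm2-/- 2 alone, at -0.99.

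Because FPKM is scaled to gene length, levels of different carriers were set side by side. The length is that of all annotated exons of a gene, whichever of its transcripts are made. Reads in bases shared with other genes may also enter the levels of Slc5a10, Slc5a2 and Slc2a1. The order of levels is thus approximate. In WT kidney Slc5a10 (81.4 ± 15.3 FPKM, SD, n = 3) stood above Slc5a2 (35.7 ± 5.64) and Slc2a1 (33.6 ± 3.83), whose ranges overlapped. Next came Slc16a1 (22.9 ± 4.84), Slc5a8 (17.2 ± 3.02), Slc5a1 (16.6 ± 1.33), Slc2a2 (16.5 ± 1.26), Slc5a12 (14.5 ± 3.05) and Slc2a5 (13.8 ± 0.706), each overlapping its neighbor. Slc2a9 (5.14 ± 0.835) was below all others without overlap. In Trpm2-/- kidney Slc2a1 (42.2 ± 7.46 FPKM), Slc5a10 (40.4 ± 2.67) and Slc16a1 (27.8 ± 9.17) led the order, with overlap between neighbors, and a gap followed. Below it came Slc5a2 (15.3 ± 3.21), Slc2a2 (14.7 ± 5.57), Slc5a1 (7.33 ± 1.60), Slc2a9 (7.31 ± 1.77), Slc5a12 (6.20 ± 3.14), Slc2a5 (5.49 ± 2.35) and Slc5a8 (5.02 ± 0.506), each overlapping its neighbor. Slc5a8 thus went from the fifth place to the last.

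Summed over the 10 genes, the level was 264.8, 278.9 and 228.6 FPKM in WT and 192.7, 161.7 and 161.1 FPKM in Trpm2-/- kidney, with no overlap. The makeup of this sum differed as well. Slc2a1 made up 13.0% ± 0.184 of it in WT and 24.7% ± 4.70 in Trpm2-/- kidney, and Slc16a1 made up 8.83% ± 1.07 and 16.0% ± 3.47 (SD, n = 3 each). The share of Slc5a10 went from 31.5% ± 3.71 to 23.6% ± 1.47, that of Slc5a2 from 13.9% ± 1.48 to 8.90% ± 1.78 and that of Slc5a8 from 6.81% ± 1.87 to 2.96% ± 0.567. Of the 10 shares, 7 did not overlap between genotypes, these 5 and those of Slc5a12 and Slc2a9. The levels of Slc2a1, Slc2a9 and Slc16a1 themselves overlapped, and only their shares of the lower sum lay apart. This count has no counterpart over all genes tested, of which 16.8% lay apart downward and 16.7% upward in CPM. The shares of Slc5a1, Slc2a5 and Slc2a2 overlapped, although Slc5a1 and Slc2a5 were called lower. Shares of a sum are bound together, and they were not tested.

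Ratios of carriers within a library were compared for 6 pairs that act in sequence or side by side. With 3 kidneys a group, the smallest p of the two-sided exact permutation test is 0.1, so no ratio could pass 0.05. The ratio of Slc5a2 to Slc5a1, the apical glucose carriers, was 1.99, 2.73 and 1.80 in WT and 2.92, 1.29 and 2.41 in Trpm2-/- kidney (exact permutation p = 1). The groups overlapped throughout, and the mean log2 ratio differed by -0.04, or by 0.31 without Trpm2-/- 2 and 0.14 without WT 2. The ratio of Slc2a2 to Slc5a2, which sets basolateral exit beside apical entry, was 0.498, 0.424 and 0.476 in WT and 1.02, 0.721 and 1.07 in Trpm2-/- kidney. Each Trpm2-/- value was above each WT value, and the ratio was 1.99-fold higher (exact permutation p = 0.1, 0.3 adjusted over 6 ratios). The ratio of Slc16a1 to Slc5a12, the proton-coupled beside the sodium-coupled lactate carrier, was 1.78, 1.48 and 1.49 in WT and 4.05, 7.34 and 3.65 in Trpm2-/- kidney. Here too the groups did not overlap, and the ratio was 3.02-fold higher (exact permutation p = 0.1, 0.3 adjusted over 6 ratios). In both of these ratios the second gene, Slc5a2 or Slc5a12, was called lower by itself and the first was not called. They thus restate the results of the single genes. In kidney tissue the genes of a ratio need not come from the same cells. The other 3 ratios overlapped between genotypes. Their differences in mean log2 ratio were 0.43 for Slc5a12 to Slc5a8 (-0.024 without Trpm2-/- 1 and 0.90 without Trpm2-/- 2), 0.74 for Slc2a9 to Slc2a2 (0.40 without Trpm2-/- 2 and 1.10 without Trpm2-/- 4) and 0.57 for Slc2a1 to Slc2a2 (0.091 without Trpm2-/- 2 and 0.92 without Trpm2-/- 4; exact permutation p from 0.3 to 0.4, 0.48 adjusted).

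**Figure D4:**
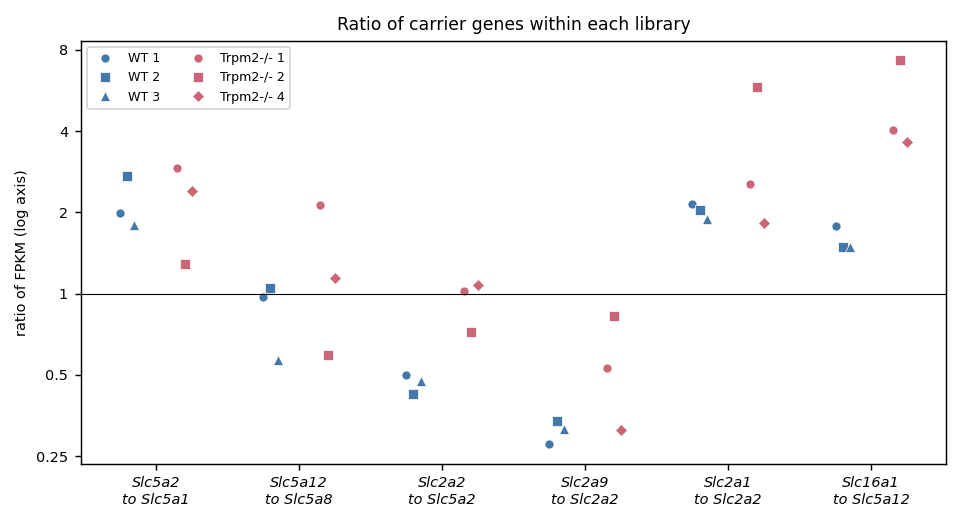
Ratio of FPKM of 2 carrier genes within each library, on a log axis, for 6 pairs, with WT libraries in blue and Trpm2-/- libraries in red. Slc2a2 to Slc5a2 and Slc16a1 to Slc5a12 are higher in every Trpm2-/- library than in any WT library, and the other 4 ratios overlap.

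The same comparison was made for 55 further genes of these families, of the proteins that work with the carriers and of the enzymes that act on what they carry. Of the 45 that could be tested, 14 were lower at an adjusted p under 0.05 in edgeR and 0 were higher. Over all genes tested, 7.28% were lower and 4.74% higher, and these shares also stand beside the counts of each list and of the markers below. These lists were also chosen with earlier results of these data known, and neither count was tested against its share. At an unadjusted p under 0.05, 2 were higher in edgeR, DESeq2 and limma-voom, and 0 were higher after adjustment in DESeq2 and limma-voom. The count of lower genes was 7 without WT 2 and 8 without WT 3. In the following, the number of alternative settings out of 17 in which a call held is given with each gene that was called.

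Among other SLC5 genes, 2 of 4 tested were lower and 0 higher, with a median log2 fold change of -0.58. Slc5a11, which carries inositol, was at 12.1 ± 2.04 FPKM in WT and 5.09 ± 1.28 in Trpm2-/- kidney (log2 fold change -1.26, SE 0.21, adjusted p = 0.00611, edgeR), and was called in 16 settings. Slc5a9, a mannose and glucose cotransporter, had a log2 fold change of -0.75 (SE 0.16, adjusted p = 0.0171, edgeR), called in 13 settings and not without WT 2 (0.0803) or WT 3 (0.0942). Slc5a6, the vitamin cotransporter, was at -0.41 (adjusted p = 0.190, edgeR). Of other SLC2 genes, 0 of 5 tested passed the test in edgeR, with 1 at an unadjusted p under 0.05, and DESeq2 and limma-voom each called 1 of them lower. The median was -0.59, and the genes with the smallest p were Slc2a8 (-0.59, adjusted p = 0.0516), Slc2a4, the insulin-responsive glucose carrier (-0.68, adjusted p = 0.205), and Slc2a12 (-0.61, adjusted p = 0.368). Slc2a8 was called in 4 settings, one of them without Trpm2-/- 4 (0.0403), and Slc2a4 in 3, one of them without Trpm2-/- 4 (0.0188).

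Of other SLC16 genes, 2 of 13 tested were lower and 0 higher, with a median log2 fold change of -0.08. Slc16a4 was at 22.1 ± 3.52 FPKM in WT and 6.42 ± 3.05 in Trpm2-/- kidney, a log2 fold change of -1.80 (SE 0.28, adjusted p = 0.00521, edgeR) that was called in 17 settings. Slc16a9 was at 13.5 ± 0.742 and 6.99 ± 2.22 FPKM (-0.96, SE 0.20, adjusted p = 0.0170, edgeR), called in 14 settings and not without WT 2 (0.0538) or WT 3 (0.0698). Slc16a13 was at -0.39 (adjusted p = 0.0646, edgeR).

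Of the partner proteins, 3 of 7 tested were lower and 0 higher, with a median of -0.50. Pdzk1ip1, the small membrane protein that SGLT2 needs for its activity, was at 364 ± 55.9 FPKM in WT and 176 ± 25.9 in Trpm2-/- kidney (-1.06, SE 0.18, adjusted p = 0.00596, edgeR), called in 16 settings. Slc9a3r1, a scaffold of the brush border, was at -0.50 (SE 0.13, adjusted p = 0.0346, edgeR) in 10 settings, lost without WT 1 (0.0564), WT 2 (0.138), WT 3 (0.171), Trpm2-/- 1 (0.0732) or Trpm2-/- 4 (0.0637). Bsg, which encodes basigin, was at -0.48 (SE 0.13, adjusted p = 0.0470, edgeR), and its call held in 5 settings and was lost without any 1 of the 6 libraries (0.0571 to 0.204). Fxyd2, a regulatory subunit of the sodium pump, was at -0.85 (SE 0.22, adjusted p = 0.0365, edgeR) in 11 settings, lost without any of WT 1 (0.0503), WT 2 (0.0977), WT 3 (0.153), Trpm2-/- 1 (0.0745) and Trpm2-/- 2 (0.0606). Atp1b1, the beta subunit of the pump, was at -0.56 (adjusted p = 0.0954, edgeR) and was called in 2 settings.

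Enzymes that act on the carried sugars and on lactate had the lowest median of these lists, -1.19, with 5 of 9 tested lower and 0 higher. The hexokinase genes Hk1 (-0.06, adjusted p = 0.808, edgeR) and Hk2 (0.91, adjusted p = 0.158, edgeR) were not called. Neither were Ldha (-0.38, adjusted p = 0.108, edgeR) and G6pc (-1.41, adjusted p = 0.0524, edgeR). Sord, which makes fructose from sorbitol, was at 241 ± 33.9 FPKM in WT and 70.0 ± 10.9 in Trpm2-/- kidney (-1.80, SE 0.17, adjusted p = 0.00126, edgeR). Khk, which phosphorylates fructose, was at 257 ± 37.0 and 87.4 ± 7.49 FPKM (-1.57, SE 0.16, adjusted p = 0.00126, edgeR). Both were called in 17 settings. Pck1, which is an enzyme of glucose synthesis rather than of sugar use, was at 1505 ± 87.0 and 457 ± 111 FPKM (-1.73, SE 0.21, adjusted p = 0.00221, edgeR) and was called in 17 settings. The list of 4 transcription factors had 0 genes called in edgeR, DESeq2 or limma-voom, 1 at an unadjusted p under 0.05 in each direction, and a median of -0.0042. Hnf4g was at 0.79 (adjusted p = 0.109, edgeR) and Hnf4a at -0.49 (adjusted p = 0.135, edgeR), and Hnf4a was called in 1 setting, the count fit with no filter (0.0438).

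Markers of the proximal tubule were present at high level and were lower in Trpm2-/- kidney, like the sodium-coupled carriers. All 6 markers of the whole proximal tubule were lower, and their summed level was 618 to 931 FPKM in WT and 211 to 282 FPKM in Trpm2-/- kidney. Slc34a1, the phosphate cotransporter, had a log2 fold change of -2.73 (SE 0.40, adjusted p = 0.00391, edgeR), called in 17 settings, and Lrp2, which encodes the endocytic receptor megalin, had -0.76 (SE 0.18, adjusted p = 0.0283, edgeR), called in 12 settings and not without WT 2 (0.0923), WT 3 (0.121) or Trpm2-/- 4 (0.0562). Lrp2 changed least of the 6, with Ass1 at -1.21, Cubn at -1.39, Miox at -1.51 and Aqp1 at -1.88, and the median of the list was -1.45. The 10 carriers, with changes from -1.79 to 0.50, all lay above Aqp1 and Slc34a1. They lay partly below and partly above Lrp2. Of 4 early-segment markers 1 was lower (Slc7a7, -0.79, adjusted p = 0.0244, edgeR, called in 11 settings and not without WT 2, WT 3, Trpm2-/- 2 or Trpm2-/- 4), and their sum overlapped, at 75.8 to 107 FPKM in WT and 63.4 to 116 FPKM in Trpm2-/- kidney. Of 4 late-segment markers 2 were lower, and their sum was 627 to 797 and 323 to 398 FPKM. Among 5 genes of injured tubule 2 rose, with a sum of 1037 to 1234 and 1480 to 1857 FPKM. These were Krt20 (0.79, SE 0.17, adjusted p = 0.0189, edgeR), called in 13 settings and not without WT 2 (0.0622), WT 3 (0.115) or Trpm2-/- 1 (0.0518), and Sox9 (1.16, SE 0.23, adjusted p = 0.0115, edgeR), called in 15 settings and not without WT 3 (0.0578). The part of these cell type markers in the change of the carriers was not tested.

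Some other nephron segments had lower marker sums as well. The sum of 4 markers of the thick ascending limb was 211 to 606 FPKM in WT and 55.4 to 203 FPKM in Trpm2-/- kidney with 2 lower. Most of it was Umod, at a mean of 298 FPKM in WT, and Slc12a1 was among those not called (log2 fold change -0.76, adjusted p = 0.510, edgeR). The sum of 3 principal cell markers was 683 to 880 and 363 to 467 FPKM with 2 lower. Most of it was Aqp2, at a mean of 693 FPKM in WT, and Fxyd4 was not called (-0.12, adjusted p = 0.808, edgeR). The sum of 4 macrophage markers was 57.7 to 68.1 and 42.2 to 56.5 FPKM with 1 lower, C1qa, whose CPM values overlapped between genotypes. Most of this sum was Cd68, at a mean of 45.6 FPKM in WT and 44.1 FPKM in Trpm2-/- kidney (log2 fold change -0.06, adjusted p = 0.841, edgeR). Sums of distal convoluted tubule (11.2 to 12.8 and 2.78 to 15.6 FPKM), intercalated cell (56.3 to 77.8 and 54.4 to 81.6), podocyte (16.5 to 23.1 and 17.8 to 69.8), endothelial (8.84 to 10.1 and 4.71 to 20.0) and fibroblast markers (5.03 to 8.43 and 4.34 to 14.4) overlapped between genotypes. The 4 hemoglobin genes were too low to test, at 0 to 0.277 and 0 to 0.421 FPKM in sum, with Hbb-bt listed at 0 in every library. Without Trpm2-/- 4, the highest library in podocyte, endothelial and fibroblast markers, 5 of the 6 carriers remained lower at an adjusted p under 0.05, and the sixth was Slc5a12.

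**Figure D5:**
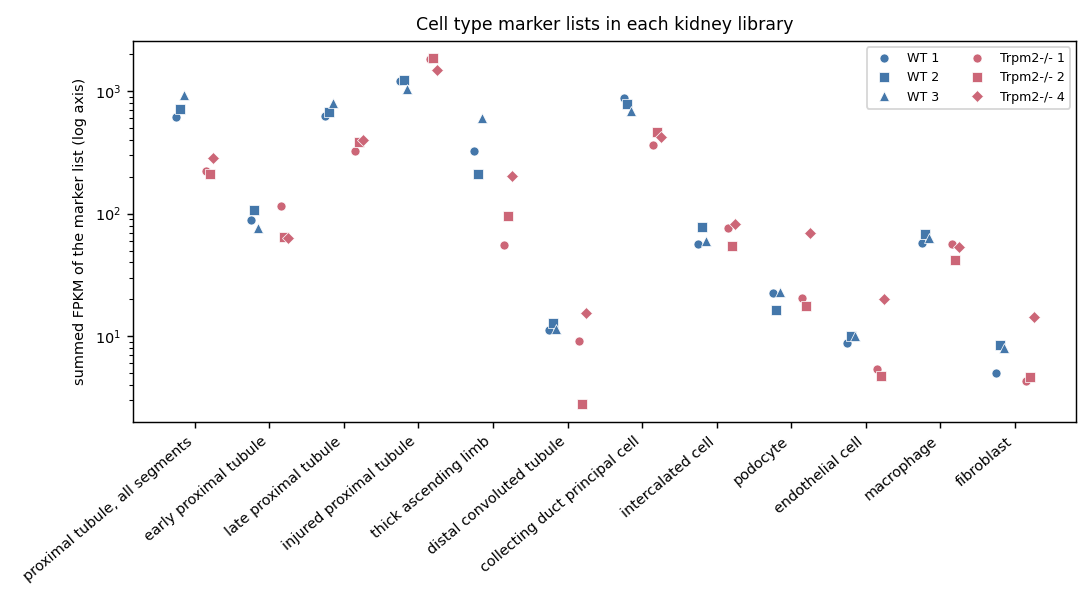
Summed FPKM of each cell type marker list, on a log axis, in each WT (blue) and Trpm2-/- (red) library. The list for all proximal tubule segments is at 618 to 931 FPKM in WT and 211 to 282 FPKM in Trpm2-/- kidney, and Trpm2-/- 4 stands above the other libraries for podocyte, endothelial and fibroblast markers.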

How the data were processed

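RNA was sequenced from kidneys of 3 WT and 3 Trpm2-/- mice. Per the study's methods, RNA was isolated with Trizol and libraries were prepared with a NEBNext Ultra II kit and sequenced on an Illumina HiSeq instrument. The authors deposited whole-number counts of reads per gene, without normalization, and FPKM values, which scale these counts to gene length and to library size. The submitters' processing notes name HISAT2, StringTie and the mm9 build. The positions in the tables, however, equal those of GRCm38 in the GENCODE mouse annotation, release M21, for 10 of 10 carriers, so coordinates are given in GRCm38. The strand setting of the counting is not given in the sources used here.

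Counts were analyzed in R 4.3.3 with edgeR 4.0.16. The default filterByExpr kept 15816 of 54532 genes, libraries were normalized by TMM, and genotypes were compared by the two-sided quasi-likelihood test (common dispersion 0.0445) with Benjamini-Hochberg adjustment over all genes tested. Standard errors were obtained from each log2 fold change and the F statistic of its test. The labels number separate samples, and p-values measure the spread between them. Between replicates the chi-square per degree of freedom was 13.5 to 18.7 in WT and 32.1 to 36.7 in Trpm2-/- kidney, so every library was counted as a separate sample. Ratios were tested on log2 values with an exact permutation test (scipy 1.17.1). Alternatives were other normalizations and filters, DESeq2 1.42.0, limma-voom and limma 3.58.1 on log2(FPKM + 1) and log2(FPKM + 0.1), mitochondrial genes left out, a replicate block and leaving out each library. The fits were tested on simulated data.

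The carriers and lists were chosen with earlier results of these data known. Named are all 10 carriers, from each other list up to 3 tested genes with the smallest p, chosen marker genes, genes that share exons with a carrier, and for Slc5a2, Slc2a2 and Slc5a12 the 3 genes with the closest pattern over the 6 libraries. A few of these genes are not reported here. Which marker genes were named was decided after their values were seen. The enzyme genes Hk1, Hk2, Ldha and G6pc were also named after their values were seen. Promoter sequences are those of RefSeq for GRCm38.p6.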

Additional observations from a re-analysis of the deposited data

How the results depend on the processing

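The direction and call of the carriers mostly held. Of 170 carrier values recomputed over 17 settings, 159 kept direction and side of the threshold, 8 lost the call, 1 gained it and 2 changed sign. With 1 library left out, Slc2a2 ranged from -0.36 to 0.10 and Slc16a1 from -0.034 to 0.44 on the log2 scale. The difference in log2 ratio ranged from -0.28 to 0.31 for Slc5a2 to Slc5a1 (0.31 without Trpm2-/- 2) and from -0.024 to 0.90 for Slc5a12 to Slc5a8 (-0.024 without Trpm2-/- 1). The number of carriers called lower was 4 to 6 over all settings, and 1 carrier was called higher with no filter on low counts. Among the 15816 genes tested, 1152 were lower and 750 higher. Without a filter on low counts 1262 were higher, and with limma on log2(FPKM + 1) 481, on log2(FPKM + 0.1) 482, and on log2(FPKM + 1) without a filter 105 were higher and 405 lower. Leaving out 1 library gave 470 to 1240 lower genes (470 without WT 3, 521 without WT 2) and 160 to 819 higher genes (160 without WT 3, 176 without WT 2, 421 without Trpm2-/- 1). Of the 55 further genes, 4 were lower with limma on log2(FPKM + 1) without a filter, 1 was higher with no filter on low counts, and leaving out 1 library gave 7 to 14 lower (7 without WT 2, 8 without WT 3) and 0 to 1 higher (1 without WT 1). The cause of these changes was not tested.

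Numbers 1 and 2 occur in both genotypes but mark different mice. Deviations of same-numbered libraries from their group means correlated at 0.064 and -0.012 across genes. Other pairs of a WT and a Trpm2-/- library ranged from -0.248 (WT 3 and Trpm2-/- 1) to 0.217 (WT 3 and Trpm2-/- 4). These values cannot show whether same-numbered libraries shared a batch, which was not tested. With the replicate number as a block, 661 genes were lower and 341 higher, and the 6 carriers kept their calls. Numbers 3 and 4 each occur in 1 genotype only, so WT 3 and Trpm2-/- 4 told nothing about genotype in that fit. Its differences thus rest on libraries 1 and 2 of each genotype and are not a check over all 6 libraries. With 3 kidneys a group, no ratio could pass the exact test. Counting error was at most 6.77% for a carrier in a library.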

Other observations

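Several genes outside the carrier families followed a carrier closely over the 6 libraries. Likeness was measured as the root mean square difference of log2 CPM, each gene centered on its own mean, among 12992 genes with at least 1 CPM on average. The genes most like Slc5a2 were Atp6v0a4, a subunit of the proton pump of the vacuole and of acid-secreting cells, at 0.109, Suox, which encodes sulfite oxidase, at 0.117, and Nubpl, an assembly factor of mitochondrial complex I, at 0.120. Their log2 fold changes were -1.24, -1.28 and -1.30, near the -1.24 of Slc5a2, which follows from the way these 3 genes were picked. Atp6v0a4 had 363, 476 and 405 CPM in WT and 219, 131 and 175 CPM in Trpm2-/- libraries 1, 2 and 4.

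The genes most like Slc2a2 were Smtnl2 (0.118), Kl, which encodes the hormone coreceptor klotho (0.120), and Lhx1, a transcription factor of kidney development (0.122). Kl had 117, 121 and 112 CPM in WT and 107, 47.7 and 123 CPM in Trpm2-/- kidney. Library 2 was the low one, as the choice by likeness to Slc2a2 brings with it. None of these 3 genes passed the test (adjusted p from 0.435 to 0.895, edgeR), which likewise goes with their choice by likeness to Slc2a2. The genes most like Slc5a12 were less close, namely Fam151a (0.226), Nubpl (0.241) and Bckdha, a subunit of the enzyme that degrades branched-chain keto acids (0.250). Nubpl stood among the 3 closest genes of both Slc5a2 and Slc5a12. Bckdha had 42.5, 49.6 and 44.6 CPM in WT and 23.6, 10.6 and 13.1 CPM in Trpm2-/- kidney (log2 fold change -1.53, adjusted p = 0.00699, edgeR). Likeness over 6 libraries in 2 groups was used as a description and no test was made of it. A gene picked for likeness to a carrier shares that carrier's difference between genotypes through the choice itself.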
